A study of Mus musculus with 4 samples.

Results

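Immediate early genes are transcribed within minutes of a stimulus without new protein synthesis, and 10 of them were followed here in nuclei of inguinal white adipose tissue: Fos, Fosb, Fosl2, Jun, Junb, Egr1, Atf3, Ier2, Nr4a1 and Dusp1. They were chosen by symbol, and all 10 were found among the 53715 genes of the count tables. Inguinal fat is the subcutaneous pad of the groin, and it was taken from C57BL/6N mice of 6 months. There were 2 libraries labelled WT (wild type) and 2 labelled PTRF knockout, and the titles number the mice separately for each library, without mention of pooling. PTRF is the older name of cavin-1, a coat protein of caveolae encoded by Cavin1. The labels give neither the allele nor the cells in which it acts, and the series title speaks of a distal enhancer of the gene. Cavin1 went against the labels: its level was 1.81 and 1.04 CPM, the unique molecular identifiers (UMIs) of the gene per 1000000 UMIs, for libraries 1 and 2 of the group labelled wild type. It was 53.9 and 50.5 CPM for libraries 1 and 2 of the group labelled knockout. The names of the deposited matrices also give each of the 4 libraries the genotype opposite to its label. Groups are therefore named by their labels throughout, every difference is labelled knockout minus labelled wild type, and no difference can be assigned to the loss of cavin-1 from these labels.

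Fos, Fosb and Fosl2 encode proteins of the Fos family, which bind DNA as the factor AP-1 together with a Jun protein such as those encoded by Jun and Junb. Their genes are switched on through factors that already sit at the promoter, chiefly serum response factor and the cAMP-responsive factor CREB, downstream of MAP kinases, calcium and cAMP. Egr1 encodes a zinc finger activator, Atf3 a stress-induced repressor of the ATF family, Nr4a1 an orphan nuclear receptor, Ier2 a small nuclear protein and Dusp1 a phosphatase that switches MAP kinases off again. In fat, these genes respond to adrenergic signals, to growth factors and to the handling and dissociation of tissue.

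Promoter windows of 250 bases before the transcription start were read from RefSeq (GRCm38.p6) for the 8 members with an entry, Fos, Fosb, Fosl2, Jun, Junb, Atf3, Nr4a1 and Dusp1. The windows of Fos, Fosb, Junb and Dusp1, all with the CREB-type motif TGACG, are shown 5′ to 3′ on the strand of the gene. The 5 bases of the motif, or of its complement CGTCA, are in capitals. Those of Atf3 and Nr4a1, with the motif, and of Jun and Fosl2, without it, are not shown. The window of Fos lies at chr12:85473640-85473889 on the plus strand, that of Fosb at chr7:19310046-19310295, that of Junb at chr8:84978749-84978998 and that of Dusp1 at chr17:26508473-26508722, these last on the minus strand.
Fos: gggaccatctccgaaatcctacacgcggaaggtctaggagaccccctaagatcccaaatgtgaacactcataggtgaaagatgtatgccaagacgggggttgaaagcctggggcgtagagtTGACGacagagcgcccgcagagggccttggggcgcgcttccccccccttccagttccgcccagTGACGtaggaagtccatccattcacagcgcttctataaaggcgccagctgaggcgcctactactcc
Fosb: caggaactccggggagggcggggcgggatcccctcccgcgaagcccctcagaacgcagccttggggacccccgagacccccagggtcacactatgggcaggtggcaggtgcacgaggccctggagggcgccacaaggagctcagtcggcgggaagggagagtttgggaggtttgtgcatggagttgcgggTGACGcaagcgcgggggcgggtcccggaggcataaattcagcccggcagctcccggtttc
Junb: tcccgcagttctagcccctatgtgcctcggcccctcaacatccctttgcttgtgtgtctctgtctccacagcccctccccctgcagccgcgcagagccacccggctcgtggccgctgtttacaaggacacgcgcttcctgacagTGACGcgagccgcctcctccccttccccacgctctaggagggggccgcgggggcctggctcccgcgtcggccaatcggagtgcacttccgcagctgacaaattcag
Dusp1: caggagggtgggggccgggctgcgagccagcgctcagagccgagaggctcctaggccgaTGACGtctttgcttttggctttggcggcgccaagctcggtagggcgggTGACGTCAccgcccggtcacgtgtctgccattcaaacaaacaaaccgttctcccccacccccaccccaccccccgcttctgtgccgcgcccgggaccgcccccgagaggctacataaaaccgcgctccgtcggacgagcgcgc
TGACG on either strand was in the windows of 6 of the 8 members (Atf3, Dusp1, Fos, Fosb, Junb and Nr4a1), against 17.8% of all 32851 windows of this length. Its full palindrome TGACGTCA, which holds the shorter motif on both strands, was in the window of Dusp1 alone, at bases −143 to −136 from the start, and in 1.55% of all windows. GCGGGGGCG on either strand, the letters bound by Egr proteins, was in the windows of Fosb, Fosl2 and Nr4a1 and in 2.57% of all. TATAAA, searched on the sense strand only, was at −33 to −28 in Fos and in 7.59% of all. The AP-1 letters TGACTCA (4.46% of all windows) and the CArG box of serum response factor (1.47%) were in 0 of the 8 windows. These matches describe letters and not binding.

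The 4 libraries kept between 6664 and 15887 nuclei, 50067 in all, with median UMIs per nucleus from 844.5 to 1401. Members were sparse: their summed UMIs were 5612, 2028, 2976 and 5059. Here and from here on, 4 values are given in the order of the labels wild type 1, then 2, then knockout 1, then 2. The median mitochondrial share of UMIs was 1.68%, 1.04%, 2.23% and 2.10%, above in both libraries labelled knockout. Clustering without the members and without the other early response and heat shock genes gave 19 clusters. Of these, the nuclei of 12 classes were numerous enough in every library to be compared, and each class name stands for nuclei like that type by its markers. Mammary epithelium was present: a luminal class marked by Prlr and Pgr, another marked by Elf5 and Kit, and a myoepithelial class. A further luminal class, led by milk protein genes such as Csn2 and Lalba, held 893, 0, 99 and 21 nuclei. It was absent from wild type 2 and so was not compared, but its nuclei, with 147 Fos UMIs, are in the sums over all nuclei. Cluster 3, of few UMIs per nucleus, was left unnamed and made up 6.23%, 30.2%, 30.2% and 12.8% of nuclei. Library pairs shared between 53 and 150 barcodes. None of the 10 members was among the 2000 variable genes, also when they were eligible, so the classes do not rest on them. Free RNA can add to the counts of every class: Adipoq, an adipocyte transcript, stood at 20.2, 15.5, 18.4 and 41.8 CPM in T or NK nuclei, against 192, 126, 269 and 506 CPM in adipocytes.

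Across the 12 classes, Fos was highest in the luminal epithelium. Its level in the Prlr/Pgr luminal class was 237, 111, 145 and 138 CPM. In the Elf5/Kit luminal class it was 77.2, 73.0, 83.6 and 75.4 CPM, a mean of 77.3 ± 4.53 (SD, n = 4). The ranges of these classes did not overlap with each other, nor did that of the Elf5/Kit class with the myoepithelial class below it (13.9 to 67.7 CPM). From the myoepithelial class down to dendritic nuclei (7.61 ± 6.45 CPM, SD, n = 4), neighbours in the order of Fos levels overlapped. Adipocytes, at 13.3 ± 8.03 CPM (SD, n = 4), stood eighth of the 12.

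Each class was tested against the unweighted mean of the other classes on 48 class-by-library sums, with a block for the library, (edgeR quasi-likelihood test, p-values adjusted by Benjamini-Hochberg, BH, over 17265 genes, called at an adjusted p under 0.05). In the Prlr/Pgr luminal class 6 of the 10 members were called higher, where 31% of all genes were: Fos, Jun, Junb, Fosl2, Ier2 and Nr4a1. The Fos difference there was 3.32 on the log2 scale (SE 0.21). In the Elf5/Kit luminal class 5 members were called higher (26.6% of all genes) and Dusp1 and Nr4a1 lower (23.8%), and Fos was higher by 2.20 (SE 0.22). The Elf5/Kit class was also the lowest by mean for Dusp1, the MAP kinase phosphatase. Dusp1 there was 7.14, 1.12, 7.77 and 5.44 CPM, below the mean of the others by a log2 difference of −1.94 (SE 0.46).

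Junb, a Jun protein with weaker activation than Jun, had a pattern of its own. It was highest in the Prlr/Pgr luminal class, at 140, 110, 117 and 130 CPM, and in dendritic nuclei, at 87.7, 97.3, 156 and 92.8 CPM. These classes overlapped with each other, and neither overlapped with the Elf5/Kit luminal class next in order (40.4 to 74.4 CPM). Dendritic nuclei had 2 members called higher (15.2% of all genes), Junb by 2.16 (SE 0.23) and Dusp1 by 1.96 (SE 0.40), and Nr4a1 called lower (13.1%). Without wild type 1 the dendritic Dusp1 difference was 1.66 with an adjusted p of 0.0561. Adipocytes were the lowest class for Junb, at 10.5 ± 4.49 CPM (SD, n = 4).

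Endothelial nuclei, a mix of vascular and lymphatic, were highest for Jun, Egr1, Dusp1, Fosb and Fosl2 by mean. Fosb in them rested on 11 UMIs over the 4 libraries, overlapped with the next class in order and was not called. Jun there was 197, 82.1, 101 and 78.1 CPM, above the mean of the other classes by 2.08 on the log2 scale (SE 0.31). Of the members, 4 were called higher in this class (9.7% of all genes): Jun, Egr1 by 1.96 (SE 0.44), Dusp1 by 2.00 (SE 0.43) and Fosl2 by 0.97 (SE 0.30). The level of each of these 4 overlapped with that of the next class in order. Progenitors, the fibroblast-like precursors of adipocytes, had the same number called higher (15.4% of all genes), with Egr1 above by 1.79 (SE 0.30) and Dusp1 by 1.78 (SE 0.32). T or NK nuclei had 5 members called lower (16.2% of all genes), and their Jun level was the lowest of the classes, at 9.58, 13.7, 8.04 and 5.08 CPM.

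Atf3 was highest in macrophages, at 39.3, 58.1, 53.5 and 30.5 CPM, and was the member whose pattern was least like the mean of the 10. The macrophage difference was 1.49 on the log2 scale (SE 0.26). Macrophages had Atf3 and Dusp1 called higher (14.1% of all genes) and Egr1 called lower (6.91%). Adipocytes had 0 members called higher (22.9% of all genes) and 4 called lower (20.6%): Junb, Atf3, Ier2 and Fos. Of the remaining classes, myoepithelial nuclei had 3 members called higher (18%), B nuclei 5 called lower (17.1%), cycling nuclei 2 called lower (8.45%) and cluster 3 had 7 called lower (30.1%). Between 14.6% (endothelial) and 65.8% (cluster 3) of all genes were called in either direction across the 12 classes, so a call in a class is common among all genes too.

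**Figure D1:**
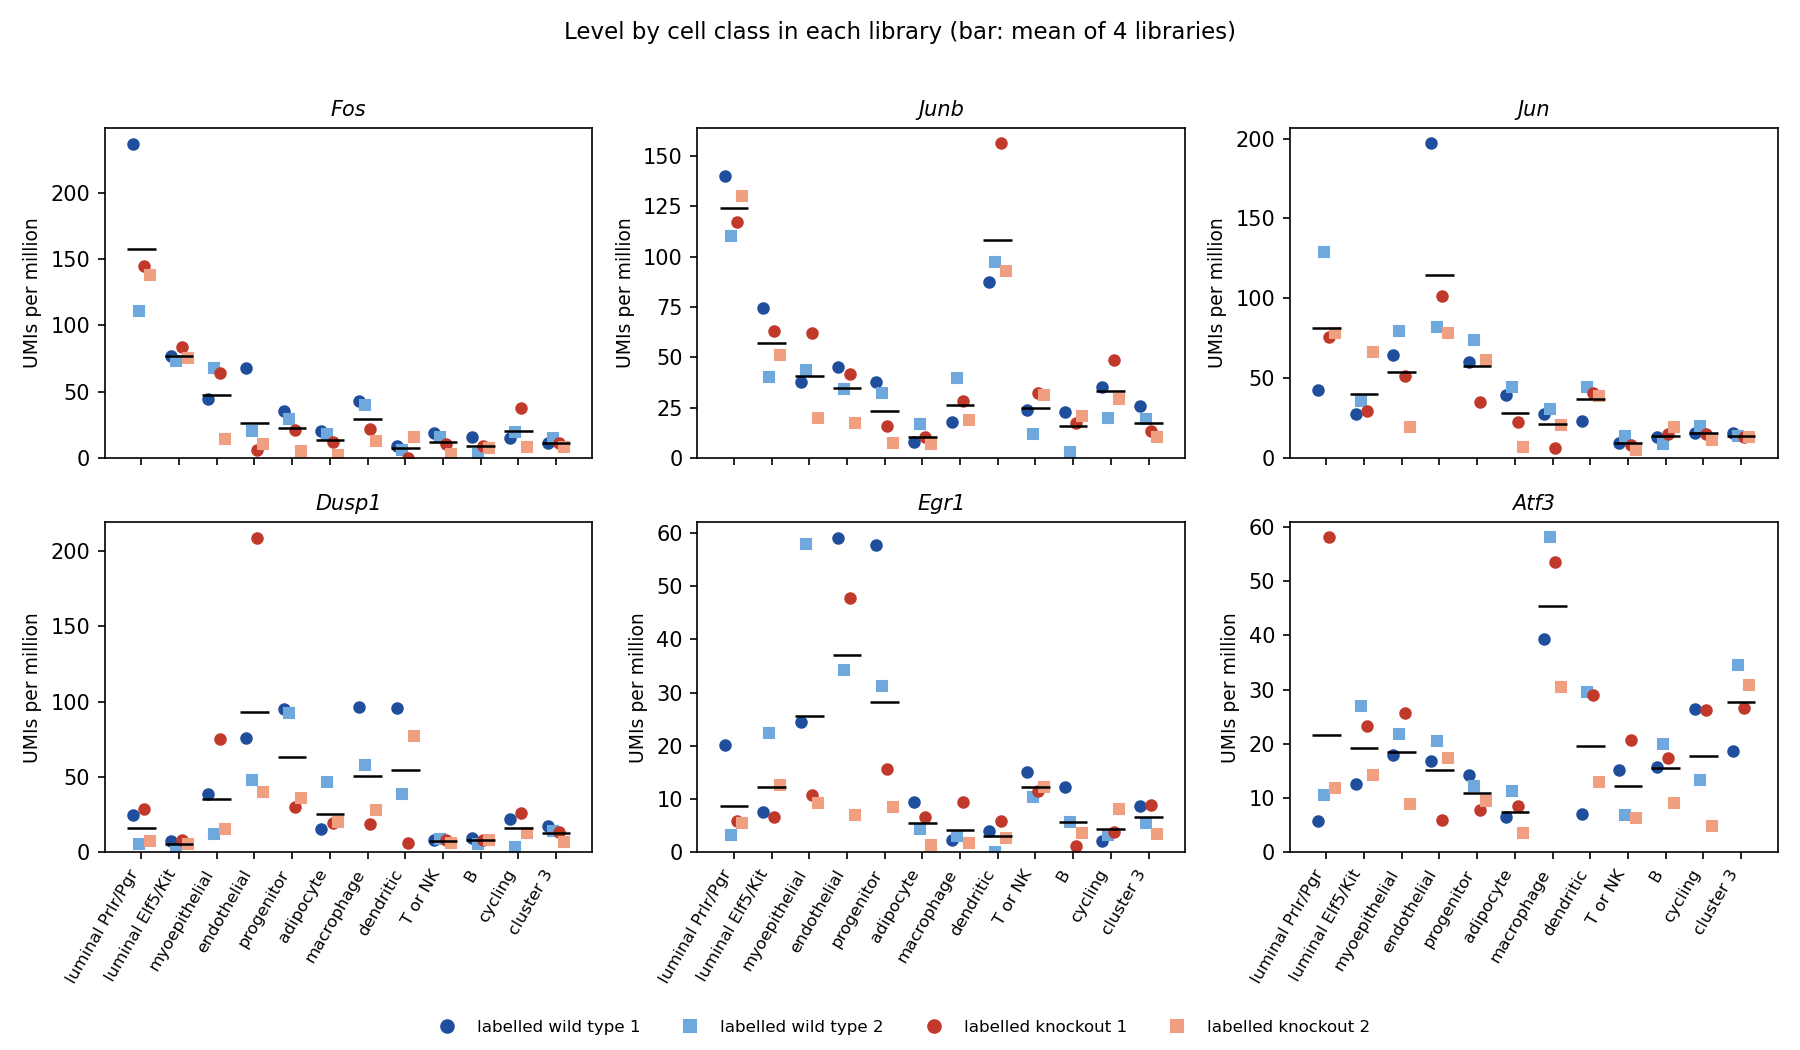
Level of 6 members (CPM, linear axis from 0) in the 12 classes, with 1 point per library and a bar at the mean of 4 libraries. Fos is highest in the Prlr/Pgr and Elf5/Kit luminal classes, Junb in the Prlr/Pgr luminal and dendritic classes, Jun, Dusp1 and Egr1 in endothelial nuclei and Atf3 in macrophages.

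Over the 48 class-by-library sums, with log2 CPM centred within each library, the highest correlation between members was that of Fosl2 with Jun (Pearson r = 0.74) and the lowest that of Junb with Nr4a1 (r = −0.24). These are descriptions over sums that share libraries and depth. Jun (r = 0.82), Fos (0.82) and Fosl2 (0.81) followed the mean of the members most closely, and Nr4a1 (0.37) and Atf3 (0.21) least, each being part of that mean. Outside the members, the 5 genes most like the mean were S100a6 (r = 0.84), which encodes a calcium-binding protein, Ptov1 (0.84), Ctnnd1 (0.83), which encodes the cadherin partner p120-catenin, Pdlim5 (0.81) and Spice1 (0.81).

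Summed over all nuclei, 0 of the 10 members were called between the labelled groups (edgeR quasi-likelihood test, BH), where 0.103% of the 28075 genes tested were called, 20 higher and 9 lower. With library totals as the scaling, 2 were called higher and 0 lower. At an unadjusted p under 0.05, 2 members were lower, against 0.492% of all genes, and DESeq2 called 0 members. The summed level of the members was 253, 235, 220 and 145 CPM, lower in both libraries labelled knockout and lowest in knockout 2. Of the 10 members, 9 had a difference below 0 and the median was −0.59 on the log2 scale, against 0.02 over all genes tested. In such sums, fewer nuclei of a class and less RNA per nucleus cannot be told apart.

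Among the Fos family, Fosb stood at 9.49, 4.06, 2.96 and 2.21 CPM. The labelled groups did not overlap, and the difference was −1.49 (SE 0.54, unadjusted p = 0.00598, adjusted p = 1 by edgeR). Egr1 stood at 15.4, 12.4, 7.98 and 5.69 CPM, again without overlap, with a difference of −1.08 (SE 0.49, adjusted p = 1). Jun (36.7, 47.2, 26.6 and 27.3 CPM) and Dusp1 (29.3, 28.9, 19.4 and 17.7 CPM) were also lower in both libraries labelled knockout. These 4 members without overlap compare with 6.82% of all genes tested. Fos, at 49.0, 36.4, 37.0 and 18.1 CPM, overlapped, since knockout 1 was above wild type 2. Nr4a1 was the member above 0: its level was 14.6, 17.5, 32.3 and 16.1 CPM, and knockout 1 stood above the rest. Without the luminal clusters 0 members were called, and the Fos difference was −1.21 in place of −0.72.

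**Figure D2:**
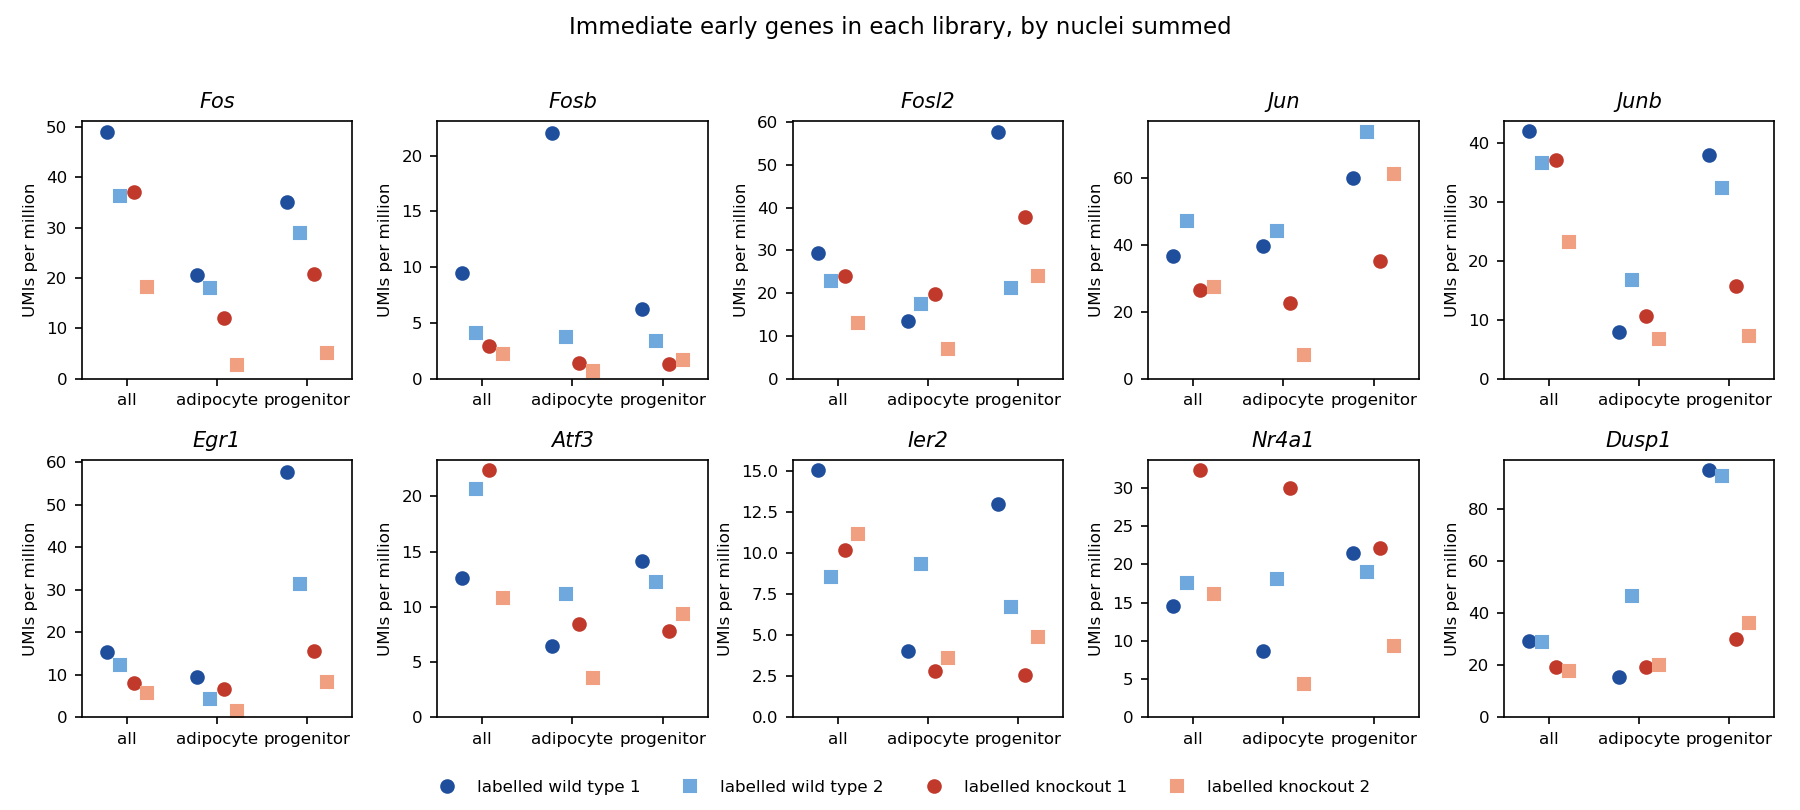
Level of each of the 10 members (CPM, linear axis from 0) in the 4 libraries, summed over all nuclei, adipocytes or progenitors. Fosb in adipocytes is high in the library labelled wild type 1 alone, and Dusp1 and Egr1 in progenitors are higher in both libraries labelled wild type.

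In adipocytes (2850, 863, 1891 and 2601 nuclei), Fosb was the member called, and it was lower in the group labelled knockout. It stood at 22.1, 3.73, 1.41 and 0.700 CPM, from 130, 6, 4 and 7 UMIs. The library labelled wild type 1 was far above the rest, and the labelled groups did not overlap. The group means were 12.9 ± 12.96 CPM for labelled wild type and 1.05 ± 0.5004 CPM for labelled knockout (SD, n = 2 each), and the fitted difference was −3.91 on the log2 scale (SE 0.72, adjusted p = 5.49e-04 by edgeR with BH). Of the 17859 genes tested, 0.202% were called lower. This call rested on the library labelled wild type 1: without it the difference was −1.87 with an adjusted p of 1. The call was also lost with library totals as the scaling (−3.83, adjusted p = 0.173) and with the replicate number as a block (−3.25, adjusted p = 0.206), and DESeq2 gave the gene no adjusted p.

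Jun and Fos were next in adipocytes and missed the threshold. Jun stood at 39.7, 44.2, 22.5 and 6.91 CPM, without overlap, with a difference of −1.66 (SE 0.44, adjusted p = 0.0666 by edgeR). Fos stood at 20.7, 18.04, 11.97 and 2.60 CPM, also without overlap, with a difference of −1.64 (SE 0.53, adjusted p = 0.285). In both, knockout 2 was the lowest library and knockout 1 lay between it and the libraries labelled wild type. Leaving out 1 library leaves an arm of 1, which is then assumed to vary like the other group. In the fit without knockout 1, 150 genes were called in place of 70, among them Jun at −2.46 (adjusted p = 8.95e-04) and Fos at −2.78 (adjusted p = 0.00370). Jun was also called among nuclei with at least 1000 UMIs and 500 genes (−1.91, adjusted p = 0.0481 by edgeR). The share of all genes called at that setting is not given here. Jun, an intronless gene at chr4:95049034-95052222, lies opposite the antisense gene Junos, whose UMIs over all nuclei (7488, 1611, 2370 and 4489) exceeded those of Jun (812, 407, 360 and 949). No source used here gives the strand of counting, so reads of this pair may not be fully separated.

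The other members did not separate the groups as far. Ier2 was without overlap at 4.07, 9.33, 2.82 and 3.60 CPM, a difference of −0.91 (SE 0.68). These 4 members without overlap compare with 11.1% of all genes tested. Dusp1 was at 15.6, 46.7, 19.4 and 20.1 CPM, with wild type 2 above the rest, and its difference of −0.59 became 0.24 without that library. Nr4a1 was again high in knockout 1, at 8.65, 18.04, 29.9 and 4.40 CPM. Its difference of 0.25 became −1.37 without knockout 1. Egr1, Atf3, Junb and Fosl2 had differences between −1.13 and −0.33 with overlapping groups. In all, 9 of 10 members were below 0 with a median of −0.76, against 0.03 over all genes, and 3 had an unadjusted p under 0.05, against 1.79% of all genes lower.

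Depth and adipocyte content stood apart in knockout 2. In adipocytes the library labelled knockout 2, lowest for 8 of the 10 members, had a median of 3150 UMIs per nucleus, against 1697, 1560 and 1342 in the others. The 12 adipocyte markers, all of them detected, summed to 24042, 16098, 20176 and 41052 CPM, highest in the same library. Knockout 1 had the lowest depth, and its marker sum lay between those of the libraries labelled wild type. Of the 14 progenitor markers 14 were detected, at 1989, 2741, 1610 and 2703 CPM, and the 11 macrophage markers summed to 234, 271, 134 and 241 CPM. Of 17 marker lists, 1 separated the labelled groups in adipocytes: the luminal epithelial markers, 13 of 14 in the files, summed to 1282, 559, 1294 and 2272 CPM, above in both libraries labelled knockout. The median mitochondrial share in adipocytes was 0.748%, 0.656%, 1.11% and 1.20025%, again above in both. Without knockout 2 the median difference of the members was −0.57 and 8 of 10 were below 0. The part of depth, mitochondrial share and other cells in these differences was not tested.

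**Figure D3:**
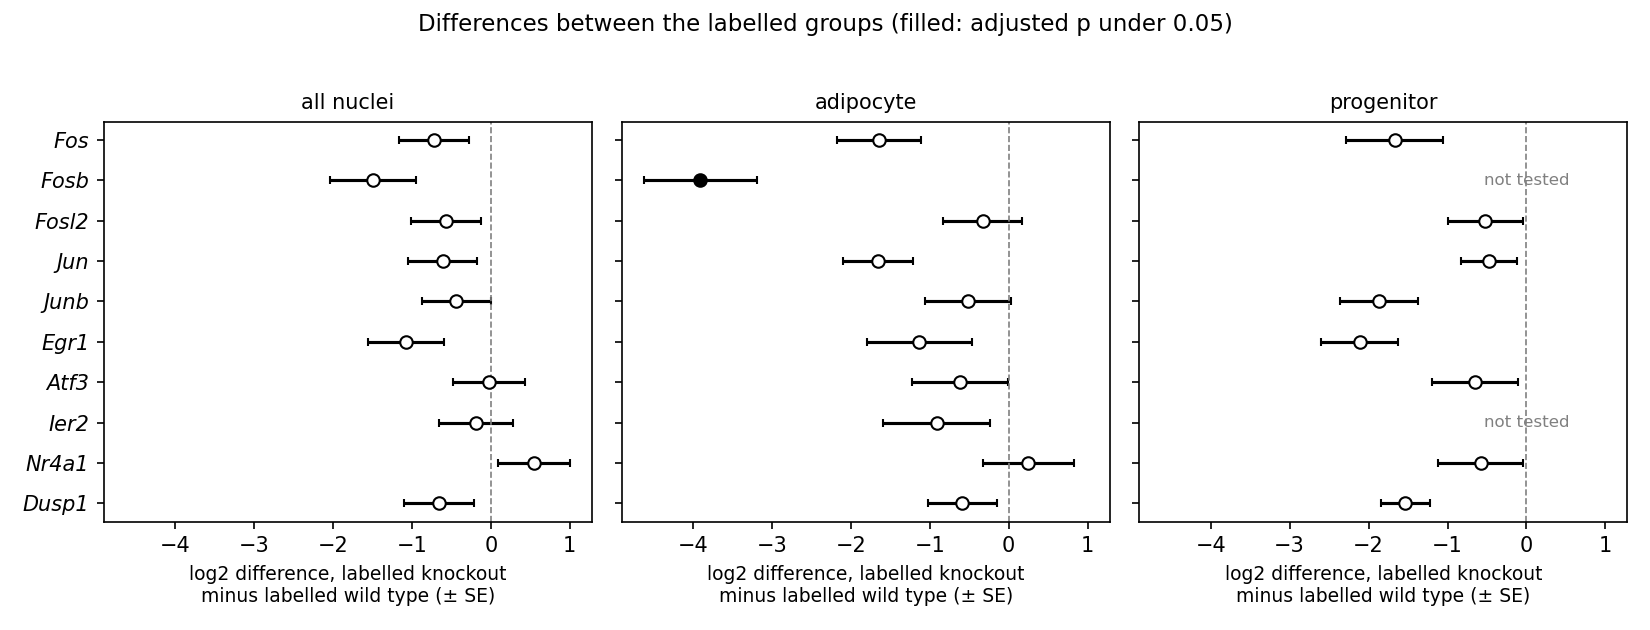
Difference between the labelled groups for each member (log2 scale, labelled knockout minus labelled wild type, bars are SE) over all nuclei, adipocytes and progenitors, from fits of 2 against 2 libraries. A filled point marks an adjusted p under 0.05, reached by Fosb in adipocytes, and members not tested in progenitors are named as such.

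Fosb in adipocytes of the library labelled wild type 1 was held by few nuclei. Of 2850 adipocyte nuclei there, 39 carried a Fosb UMI (1.37%), and the 3 with the most, up to 21 each, gave 43 of the 130 UMIs. In the other libraries 6 of 863, 3 of 1891 and 6 of 2601 adipocyte nuclei carried one. With every nucleus thinned to 500 UMIs, which left none out, the shares were 0.632%, 0.116%, 0.106% and 0.0769%. T or NK nuclei of wild type 1, of lower depth (median 755 UMIs against 1697), carried Fosb UMIs in 0.213% unthinned and 0.128% thinned. By mean, that class ranked 11 of the 12 for Fosb. Over all nuclei of wild type 1, adipocytes included, the shares were 0.612% and 0.290%. The highest Fosb level of any library was 17.6 CPM in cycling, 16.9 CPM in endothelial and 12.4 CPM in Elf5/Kit luminal nuclei. Those classes held 9, 11 and 57 Fosb UMIs over the 4 libraries.

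The same 39 nuclei carried other immediate early transcripts. Fos UMIs were in 18 of the 39 (46.2%), against 1.28% of the other 2811 adipocyte nuclei, and the Fos level was 722 CPM against 8.63 CPM. Egr1 UMIs were in 10 of the 39 (25.6%) against 1.03%, with 221 CPM against 5.87 CPM. Nr4a1 was at 70.2 CPM against 7.59 CPM and Jun at 70.2 CPM against 39.2 CPM. Fosl2 had 0 UMIs in the 39 nuclei, which at 3 counts allows up to 30.1 CPM. These are counts of nuclei of 1 library, with a median of 2150 UMIs in nuclei with Fosb and 1690 in the others, and carry no test. The nuclei with Fosb had an adipocyte marker sum of 31780 CPM against 23909 CPM and a median mitochondrial share of 0.521% against 0.750%. Endothelial markers, 11 vascular genes, were at 10.0 CPM in them, under the 30.1 CPM of 3 counts, against 103 CPM. The 11 macrophage markers were at 271 CPM against 234 CPM. Other lists went either way. Progenitor (2507 against 1981 CPM) and Schwann markers (542 against 307 CPM) were higher in the nuclei with Fosb. Luminal epithelial (1063 against 1285 CPM) and T or NK markers (90.3 against 123 CPM) were lower.

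**Figure D4:**
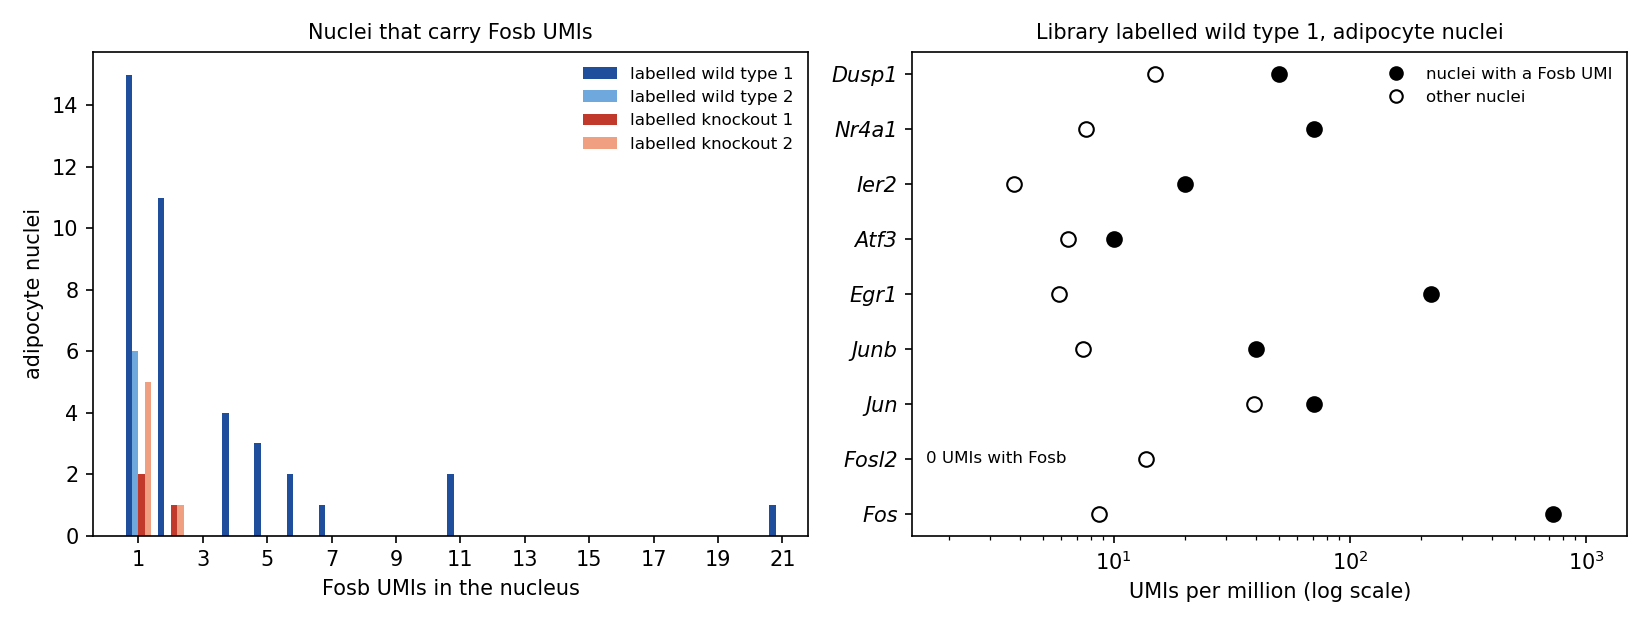
Left, number of adipocyte nuclei by their Fosb UMIs in each library (nuclei with 0 left out). Right, level of the other members (CPM, log axis) in the 39 adipocyte nuclei of the library labelled wild type 1 with a Fosb UMI and in the other 2811, where Fos and Egr1 differ most.

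In progenitors (1429, 615, 738 and 1859 nuclei) 8 of the 10 members passed the filter on low counts, 0 were called (edgeR quasi-likelihood test, BH), and all of those 8 had differences below 0. Of the 12731 genes tested 0.0314% were called, 2 higher and 2 lower, while DESeq2 called 8 higher and 15 lower and library totals gave 5 higher and 2 lower. DESeq2 called 0 members and gave no adjusted p to Fos, Junb, Egr1, Atf3 and Nr4a1. At an unadjusted p under 0.05, 4 members were lower, against 1.92% of all genes. The median difference of the members tested was −1.09, against −0.00 over all genes. The filter removed Fosb and Ier2, with 11, 3, 1 and 7 UMIs for Fosb and 23, 6, 2 and 21 UMIs for Ier2.

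Egr1, induced by growth factors in fibroblasts, had the largest difference of the 8 tested. It stood at 57.8, 31.3, 15.6 and 8.44 CPM, both libraries labelled knockout below both labelled wild type, with a difference of −2.11 (SE 0.48, adjusted p = 0.402 by edgeR). Junb stood at 37.95, 32.4, 15.6 and 7.26 CPM, with a difference of −1.86 (SE 0.49, adjusted p = 0.614). Dusp1 stood at 95.2, 92.7, 30.0 and 36.3 CPM, the libraries of each labelled group lying close together, with a difference of −1.54 (SE 0.31, adjusted p = 0.246). Its group means were 93.9 ± 1.73 CPM and 33.1 ± 4.48 CPM (SD, n = 2 each). Junb overlaps with Prdx2 on the opposite strand. Dusp1 overlaps with 4 annotated genes, Ergic1 and Gm8225 on the opposite strand and AC122252.4 and AC122252.1 on its own strand. For Junb and Dusp1 too, reads may not be fully separated.

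Fos in progenitors stood at 35.1, 29.0, 20.9 and 5.16 CPM, and its difference was −1.67 (SE 0.61, adjusted p = 1 by edgeR). Jun, which separated the groups in adipocytes, overlapped in progenitors at 60.05, 73.7, 35.2 and 61.2 CPM. Atf3 was lower without overlap, and Fosl2 and Nr4a1 overlapped. The 5 tested members without overlap (Fos, Junb, Egr1, Atf3 and Dusp1) compare with 11.6% of all genes tested. Leaving out 1 library, which leaves an arm of 1 assumed to vary like the other group, called 28 to 62 genes in place of 4. Egr1 was among the 52 genes called without wild type 2 (−2.47, adjusted p = 0.00609). Egr1 (−2.45, adjusted p = 0.00775), Fos (−2.67, adjusted p = 0.0134) and Junb (−2.31, adjusted p = 0.0394) were among the 50 called without knockout 1. With no filter on low counts 35 genes were called, Egr1 among them (−2.11, adjusted p = 0.0381).

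The progenitor class joined 2 clusters in proportions that differed by library. Cluster 13, led by Pi16, Dpp4 and Cd34, held 34.0%, 34.6%, 10.4% and 25.9% of its nuclei, fewer in both libraries labelled knockout, and cluster 14, led by Dcn, Col3a1 and Col1a1, held the rest. Each cluster was therefore also fitted alone, an alternative chosen after seeing the data, and 0 members were called in either. Dusp1 UMIs came mostly from cluster 13 except in knockout 1, where it gave 5 and cluster 14 gave 18. In cluster 13, from 486, 213, 77 and 482 nuclei and 141, 58, 5 and 95 UMIs, Dusp1 was without overlap. Its level there was 207, 154, 58.9 and 89.1 CPM (difference −1.24). Knockout 1 had fewer nuclei in this cluster than the 200 set for the test between labels. In cluster 14 Dusp1 overlapped, at 24.9, 48.2, 26.4 and 18.7 CPM (difference −0.73). The share of cluster 13 was smaller where Dusp1 in the class was lower, and its part was not tested. Egr1 was the reverse: in cluster 14 it stood at 82.0, 44.4, 14.7 and 8.44 CPM, without overlap, with a difference of −2.64 (adjusted p = 0.248 by edgeR). In cluster 13, from 13, 5, 2 and 9 UMIs, Egr1 overlapped and its difference was −0.62. Fos (−2.16) and Junb (−2.41) were also without overlap in cluster 14. The share of all genes lower without overlap was not computed for either cluster. In the whole progenitor class it was 11.6%. The 8 members tested in cluster 14 and the 6 tested in cluster 13 all had differences below 0, with medians of −0.81 and −0.67.

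In progenitors too, the mitochondrial share and some marker lists separated the labelled groups, while depth and 11 of the lists overlapped. The median UMIs per nucleus were 1055, 1158, 916.5 and 1880. Progenitor markers, 14 of 14 detected, summed to 13859, 13903, 9670 and 14520 CPM, lowest in the library labelled knockout 1. Of the 17 marker lists, 4 were above in both libraries labelled knockout. The 9 markers of pericytes or smooth muscle stood at 207, 195, 387 and 312 CPM and the 11 of macrophages at 146, 160, 182 and 244 CPM. The 9 dendritic markers stood at 86.1, 95.0, 152 and 114 CPM and the 8 myoepithelial markers at 84.4, 90.5, 117 and 97.5 CPM. Both endothelial lists were lower in both: the 11 vascular genes at 439, 422, 392.3 and 379 CPM and the 7 lymphatic genes, with Ccl21a at 0 throughout, at 155, 161, 137 and 122 CPM. The median mitochondrial share in progenitors was 1.29%, 0.840%, 1.82% and 1.47%, above in both libraries labelled knockout. The part of these in the members' differences was not tested.

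Whether the differences in adipocytes and progenitors themselves differed was tested as an interaction on 8 sums, with a block for the library. Of the 17077 genes tested 0.123% were called and 0 of the 10 members (edgeR quasi-likelihood test, BH). DESeq2 also called 0 members, giving an adjusted p to Jun and Dusp1 alone. In simulated data with an assumed dispersion, the edgeR test called 1 of 50 genes with a true log2 difference of 2. With a true difference of 3 it called 4 of 50. The lack of a called member therefore says little about differences of that size. At an unadjusted p under 0.05 there were 4 members, against 5.66% of all genes. Jun (−1.40, SE 0.62) and Fosb (−2.29, SE 1.005) were further below 0 in adipocytes, and Junb (1.42, SE 0.55) and Dusp1 (1.11, SE 0.45) further below 0 in progenitors, with adjusted p from 0.712 to 0.852. Without knockout 1, where the lone library is assumed to vary like the others, 54 genes were called in place of 21, Jun among them (−2.41, adjusted p = 0.00112). Without knockout 2 the Jun value was 0.04 and not called. For Fos, the interaction was −0.14 (SE 0.49).

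In each of the 8 other classes large enough to test, 0 members were called by edgeR or by DESeq2. After the filter on low counts, edgeR tested 10 members in Elf5/Kit luminal nuclei and 9 in myoepithelial, T or NK and cluster 3 nuclei. It tested 8 in Prlr/Pgr luminal nuclei, 7 in macrophages, 6 in B and 2 in cycling nuclei. The percentage of all genes called was 0% in the Prlr/Pgr luminal class, 0.0131% in the Elf5/Kit luminal class, 0.00925% in myoepithelial nuclei, 0.0103% in macrophages, 0.0466% in T or NK, 0.0443% in B, 0.0122% in cycling nuclei and 0.192% in cluster 3. At an unadjusted p under 0.05, members were found in 4 of these classes. In macrophages, where 0.466% of all genes were lower at that cut, Dusp1 (96.4, 58.1, 18.9 and 27.8 CPM) had a difference of −1.70 (SE 0.50) and Fos one of −1.40 (SE 0.59). In myoepithelial nuclei (0.814% of all genes lower) Egr1 (24.5, 58.0, 10.7 and 9.29 CPM) had a difference of −2.03 (SE 0.60) and Jun one of −1.20 (SE 0.49). Fos in T or NK nuclei (0.533% of all genes lower) had a difference of −1.59 (SE 0.72).

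In the luminal epithelium no member was lower at an unadjusted p under 0.05, and the difference from the other classes was not tested. In the Prlr/Pgr luminal class Nr4a1 was at 26.0, 6.30, 72.3 and 56.0 CPM, higher in both libraries labelled knockout, with a difference of 1.90 (SE 0.58, adjusted p = 0.998 by edgeR). At an unadjusted p under 0.05, 1.78% of all genes were higher there. Leaving out 1 library, which leaves an arm of 1 assumed to vary like the other group, changed the number of genes called, which was 0 of 10958 with all 4 libraries. Without wild type 1, 454 were, Nr4a1 among them (3.10, adjusted p = 5.11e-04), and without wild type 2, 117 were, with Atf3 (2.60, adjusted p = 0.0437). In the Elf5/Kit luminal class the summed level of the members was 293, 265, 278 and 290 CPM, with overlapping groups. In progenitors the same sum was 399, 322, 189 and 168 CPM, without overlap, and in adipocytes it was 148, 190, 133 and 56.8 CPM, also without overlap. This was not particular to these classes. The sum was also without overlap in macrophages (286, 272, 195 and 184 CPM) and in cluster 3 (172, 152, 149 and 120 CPM). It overlapped in the remaining classes, and no share over all genes was computed for such sums.

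Other genes of the same pathways were given by lists. The list of cAMP/CREB target genes had 10 genes tested in adipocytes, 1 called lower, 0 called higher and 3 above 0, with a median of −0.33. Over all nuclei it had 1 called lower and 4 above 0 of 10 (median −0.17), and in progenitors 0 called and 4 above 0 of 9 (median −0.02). The gene called was the same in both: Rgs2, a cAMP-induced regulator of G protein signalling, at 198, 61.0, 19.7 and 11.1 CPM, with a difference of −3.20 (SE 0.46, adjusted p = 8.69e-06 by edgeR). The libraries labelled wild type were both above those labelled knockout, wild type 1 the furthest. Without wild type 1, where 9 genes were called, the difference was −1.99 with an adjusted p of 0.456, and with library totals the adjusted p was 0.0655. Of the Rgs2 UMIs over all nuclei, adipocytes gave 1169 of 1479 in wild type 1 but 98 of 412 in wild type 2. In wild type 2 the Prlr/Pgr luminal class gave 253. Rgs2 in that luminal class was at 19.5, 266, 117 and 18.9 CPM, with overlapping groups. Over all nuclei Rgs2 stood at 66.8, 47.8, 19.7 and 12.3 CPM, with a difference of −1.91 (SE 0.46, adjusted p = 0.0326 by edgeR). That call was lost without any 1 of the 4 libraries (adjusted p from 0.138 to 1) and in DESeq2 (adjusted p = 0.0992).

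Of 28 other early response genes, such as Klf, Egr, Ier and Nr4a relatives, 21 were tested in adipocytes. Of these 0 were called and 4 were above 0, with a median of −0.49. Of 10 early targets of NF-kB, 7 were tested in adipocytes, 0 were called and 0 were above 0, with a median of −0.75. MAP kinases and the SRF and CREB factors had 22 genes tested there, 0 called and 10 above 0, with a median of −0.05, near the 0.03 of all genes. The feedback phosphatases and Sprouty genes had 9 tested, 0 called and 3 above 0, with a median of −0.34. Heat shock genes had 12 tested, 0 called and 8 above 0, with a median of 0.24. In progenitors the medians of these 5 lists were −0.23, −0.43, 0.07, 0.06 and 0.04, with 0 genes called in any of them.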

How the data were processed

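The authors deposited raw UMI counts per gene and nucleus barcode for 4 libraries. Per the labels' protocols, nuclei were captured with a Singleron GEXSCOPE kit and sequenced on an Illumina instrument, and per the submitters' processing notes the build was GRCm38 (mm10) and Seurat 4.3.0 was used. Aligner, strand of counting and barcode filter: not given in the sources used here. Deposited barcodes held at least 500 UMIs. Library totals of kept UMIs were 22139962, 8623219, 13533002 and 34819482, and the UMI number behind each value sets its precision.

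Kept barcodes had a minimum of 500 UMIs and 300 genes and a mitochondrial share of at most 10%. No doublet caller was used, so doublets remain. Nuclei were clustered with scanpy 1.11.5 (2000 variable genes, 30 components, 15 neighbours, Leiden resolution 1, no integration), leaving the members, other early response genes and heat shock genes out of the variable genes. A cluster took a type's name with at least 3 of its markers among its 100 leading genes. A class needed 50 nuclei in every library for levels and 200 for the test between labels.

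Counts were summed per library, filtered with filterByExpr, scaled by TMM and tested with edgeR 4.0.16 (glmQLFit robust, glmQLFTest, two-sided) in R 4.3.3. P-values were adjusted by Benjamini-Hochberg over all genes tested, with a threshold of 0.05. DESeq2 1.42.0 was an alternative. The code was tested on simulated data. CPM values are UMIs per 1000000 UMIs of the summed nuclei, and mean ± SD is over libraries. All 10 members are named, pathway genes where called in all nuclei, adipocytes or progenitors, and for likeness the 5 genes most correlated with the members' mean. Coordinates of genes are GENCODE M21, in which 53620 of 53715 identifiers occur. Members and lists were chosen with earlier results of these data known.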

Additional observations from a re-analysis of the deposited data

How the results depend on the processing

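The limits of these comparisons are 2 libraries per labelled group, members with few UMIs in most classes, and labels that Cavin1 goes against. Genes called between labels numbered 29 over all nuclei, 70 in adipocytes, 4 in progenitors and 21 for their interaction. With DESeq2 these were 13, 44, 23 and 37, and with library totals 2, 24, 7 and 13. Without the filter on low counts they were 33 in adipocytes, 35 in progenitors and 89 for the interaction. With at least 1000 UMIs and 500 genes they were 3 over all nuclei and 13 in progenitors. Over all nuclei they were 15 without the luminal clusters and 50 without cluster 3, alternatives chosen after seeing the data. Leaving out a replicate, with the lone library of that arm assumed to vary like the other group, gave 5 to 18 over all nuclei, 9 to 150 in adipocytes, 28 to 62 in progenitors and 11 to 99 for the interaction. In the 8 other classes together, 54 genes were called: 216 without the filter, 34 with library totals, 9 at 1000 UMIs, 33 at resolution 0.5, and 37 to 1135 with a replicate left out.

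Members called in adipocytes were 1, but 0 with library totals or the replicate block. They were 2 at 1000 UMIs, where the share of all genes called is not given here. They were 0 with DESeq2, which gave no adjusted p to Fosb, Egr1, Atf3 and Ier2. In progenitors they were 0, also in cluster 13 or cluster 14 alone (3 genes called in each), but 1 without the filter and 0 to 3 with a replicate left out. For the interaction and for the 8 other classes they were 0, and 0 to 1 with a replicate left out. Members below 0 were 8 to 10 of 10 in adipocytes and 8 or 9 of 10 over all nuclei under every alternative run.

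Same-numbered libraries did not deviate together (correlation of deviations −0.61 over all nuclei). With 2 libraries per group this rests on the contrast within each group, and it cannot decide whether the numbers pair the samples. With the replicate block 4 genes were called over all nuclei, 18 in adipocytes and 4 in progenitors, and the Nr4a1 difference in adipocytes was −0.086. With the numbers crossed, a pairing chosen after seeing the data, 39, 149 and 58 genes were called, with 2 members in adipocytes and 2 in progenitors, 408 genes in the 8 other classes, and −0.16 for Nr4a1 in adipocytes.

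Among single members, Atf3 over all nuclei went from −0.02 to 0.017 at 1000 UMIs and to 0.0015 without cluster 3, and the Fosl2 interaction from 0.02 to −0.0073 with library totals and to −0.12 at 1000 UMIs. With a replicate left out, the sign changed over all nuclei for Atf3 (−0.41 to 0.28) and Ier2 (−0.70 to 0.51). In adipocytes it changed for Fosl2 (−1.02 to 0.20), Nr4a1 (−1.37 to 1.08) and Dusp1 (−1.18 to 0.24). In progenitors it changed for Fosl2 (−1.03 to 0.38) and Nr4a1 (−1.15 to 0.023). For the interaction it changed for Fosl2 (−1.02 to 0.63), Jun (−2.41 to 0.035), Atf3 (−0.61 to 0.84), Ier2 (−0.67 to 1.31) and Nr4a1 (−0.23 to 1.23). The causes were not tested. Other scaling moved the median of all genes by at most 0.07 on the log2 scale.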
